A study of Mus musculus with 18 samples.

Results

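WNT pathway genes were followed through 12 RNA-seq libraries of sorted mouse cortical neurons. The family was taken by name from a table of 24015 genes and held 64 of them: the Wnt, Frizzled (Fzd), Dickkopf (Dkk), secreted Frizzled-related protein (Sfrp), R-spondin (Rspo) and Dishevelled (Dvl) genes, Lgr4 to Lgr6, and Lrp5, Lrp6, Porcn, Kremen1, Znrf3, Rnf43, Nkd1, Nkd2, Axin1, Axin2, Apc, Gsk3b, Ctnnb1, Tcf7, Tcf7l1, Tcf7l2 and Lef1. The rule goes by name and uses no threshold on these values, but it was drawn up with earlier results of these data known. The study asked how the dose of Tbr1, a T-box transcription factor gene of deep-layer neurons, shapes layer 6 of the neonatal cortex. At postnatal day 5, about 25000 cells per sample that carried the red fluorescent protein tdTomato were sorted from cortex. There were 4 libraries each of Tbr1 null layer 6 neurons, wild-type (WT) layer 5 neurons and WT layer 6 neurons. The sample labels call the mutant genotype "Tbr1 Layer 6 Null" and the series design calls it constitutive. The sources used here name neither the driver of tdTomato, the null allele, the strain of these mice nor any pooling of animals. All layer 6 libraries were sequenced in batch A, and the layer 5 libraries in batches B and C, so layer and batch cannot be told apart.

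In canonical WNT signalling, a secreted WNT protein binds a Frizzled receptor and the co-receptor LRP5 or LRP6, Dishevelled is recruited, and a destruction complex of AXIN, APC and GSK3β stops degrading β-catenin, which then activates genes together with TCF and LEF factors. R-spondins and LGR receptors raise sensitivity by removing the ubiquitin ligases ZNRF3 and RNF43 from the cell surface, and SFRP and DKK proteins block ligand or co-receptor outside the cell. In the developing cortex the pathway is known for roles in progenitor growth, neuronal maturation, axon growth and the formation of brain vessels.

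Null layer 6 libraries held 41091165 to 47540669 counts, WT layer 5 libraries 27465597 to 39703820 and WT layer 6 libraries 32982957 to 54899002. Levels are given as CPM (counts scaled to a common library total), always in the order of replicates 1 to 4. CPM is not divided by gene length, so levels are compared between groups and not between genes. Tbr1 stood at 92.4 to 98.2 CPM in null layer 6, at 39.7 to 44.9 CPM in the layer 5 libraries and at 170.3 to 183 CPM in WT layer 6. Its null level was 0.539 times that of WT layer 6 (log2 fold change -0.89 ± 0.035 SE, edgeR adjusted p 8.53e-09) and 2.22 times that of WT layer 5, so Tbr1 RNA remained in the libraries labelled null. Counts per gene do not show which part of the transcript remained, and "null" below is the word of the labels. The libraries of a layer 6 group form pairs (replicates 1 with 2, and 3 with 4) that share a digit in their codes. The labels do not say whether replicates are separate animals, and the p-values therefore reflect the spread of libraries alone, which may be technical. Xist, the RNA of the inactive X chromosome, was at 0.462 and 0.450 CPM in the first WT layer 6 pair and at 292 and 289 CPM in the second, against 264 to 302 CPM in null layer 6 and 39.0 to 40.6 CPM in WT layer 5, apart from every layer 6 library. The 7 layer 6 neuron markers, Tbr1 among them, summed to 417 to 458 CPM in null layer 6, to 304 to 323 CPM in the layer 5 libraries and to 663 to 741 CPM in WT layer 6. The 6 layer 5 neuron markers summed to 666 to 737 CPM in null layer 6, to 255 to 260.5 CPM in the layer 5 libraries and to 503 to 559 CPM in WT layer 6, so the libraries labelled layer 5 had the lowest sum of the markers of their own layer. No marker of either list was at 0.

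Of the 64 WNT genes, 48 had at least 10 counts in every library. Dkk4 and Wnt8a had 0 counts in all 12. Within a group, 55 genes of null layer 6 libraries had at least 10 counts in each, as had 51 genes of WT layer 5 and 54 of WT layer 6. The 20 genes counted as ligand genes here are the 19 Wnt genes and Porcn. Of the 20, 15 reached that level in null layer 6, 11 did so among WT layer 5 libraries and 15 in WT layer 6. All 12 receptors and all 5 effectors reached it in every group. Dkk1, Rspo4, Wnt1, Wnt10a, Wnt10b and Wnt9b were too low to test in any comparison, and their largest value in any library was 0.256 CPM.

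Promoter windows of 250 bases before the start site were available from RefSeq (build GRCm38.p6) for 42 members, in 52 windows. They were searched on both strands for GTGTGA (reverse complement TCACAC), a core of T-box sites such as those of TBR1, and for CTTTGA (reverse complement TCAAAG), a core of TCF and LEF sites; no WNT window held both. The T-box core was in 1 of the 52 WNT windows (1.92%), against 12.3% of all 32851 windows in the table. The TCF/LEF core was in 6 (11.5%), against 13.8%. Some windows of the same gene overlap, and the shares were not matched for base composition, so they do not measure depletion. Lgr4, Fzd1, Wnt2, Nkd1, Ctnnb1 and Nkd2, all called below between null and WT layer 6, had 7 windows. Each core was in 1 of these 7 (14.3%), near its share of all windows, so 2 held a match. Those 2 are printed to show what lies upstream of a called gene, in the direction of transcription, with the match in capitals. The Fzd1 window (chr5:4758217-4758466, minus strand) holds 1 TCF/LEF core, read as its reverse complement, starting at position -242, where -1 is the base before the start site. The Nkd1 window (chr8:88527383-88527632, plus strand) holds 1 T-box core starting at position -129. A match describes these letters only.
Fzd1: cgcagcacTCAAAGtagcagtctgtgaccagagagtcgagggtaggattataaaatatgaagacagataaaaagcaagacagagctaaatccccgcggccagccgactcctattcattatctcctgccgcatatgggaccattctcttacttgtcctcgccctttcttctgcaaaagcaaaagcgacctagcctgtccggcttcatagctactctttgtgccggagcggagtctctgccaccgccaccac
Nkd1: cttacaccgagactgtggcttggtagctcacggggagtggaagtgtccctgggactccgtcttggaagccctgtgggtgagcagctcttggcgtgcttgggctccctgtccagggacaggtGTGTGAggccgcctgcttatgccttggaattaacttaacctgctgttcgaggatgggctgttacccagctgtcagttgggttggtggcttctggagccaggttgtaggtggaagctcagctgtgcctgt
Wnt7b, Lgr5, Rspo3, Sfrp1 and Dkk3, the other called members, were not among the 42 with a window and were not searched.

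Null layer 6 was first compared with WT layer 6. In null neurons the ligand gene Wnt7b fell 2.27-fold and the R-spondin receptor gene Lgr5 rose 7.25-fold, while most other members were not called. Of 56 members tested, 8 were higher and 3 lower in null libraries (19.6%), at an adjusted p under 0.05 in edgeR's quasi-likelihood test with Benjamini-Hochberg adjustment over all genes tested. Over all 14588 genes tested, 14.2% were called, 7.31% higher and 6.86% lower. The same 11 members were those whose groups did not overlap, where 19.8% of all genes did not overlap. The median log2 fold change of the 56 members was -0.017, and all genes tested had a median of 0.00034. Wnt7b, Lgr5 and Wnt2 changed by at least 1 on the log2 scale, as did 1.34% of all genes, and Lgr5 by at least 2, as did 0.254%. Each library is a bulk sample, so fewer cells of a type and less RNA per cell cannot be told apart.

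**Figure D1:**
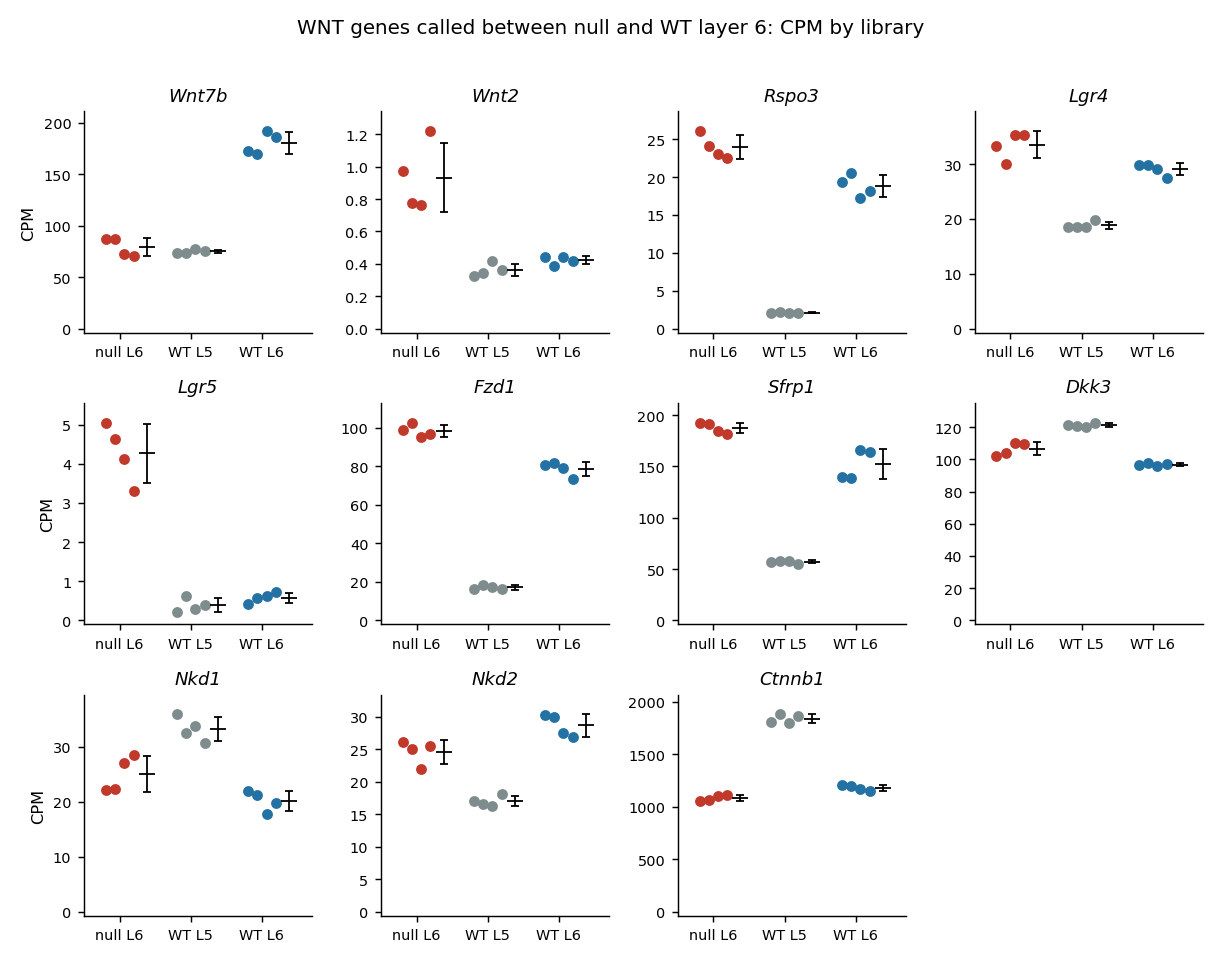
Level in CPM (linear axes starting near 0) of the 11 WNT genes called between null and WT layer 6, with 1 point per library in null layer 6 (red), WT layer 5 (grey) and WT layer 6 (blue), and a bar for the mean ± SD (n = 4). Wnt7b sits at 70.4 to 87.3 CPM in null layer 6 and at 74.0 to 77.2 CPM in WT layer 5, both under the 170.1 to 192 CPM of WT layer 6, and Lgr5 is above 3 CPM in null layer 6 alone.

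Among the ligands, Wnt7b, a canonical ligand known for signalling from the neural tissue to brain endothelium, had 87.3, 86.9, 72.9 and 70.4 CPM in null layer 6, against 172, 170.1, 192 and 187 CPM in WT layer 6. All null libraries were below all WT libraries, and within each genotype the values fell into the library pairs. The means were 79.4 ± 8.99 CPM in null and 180.2 ± 10.7 CPM in WT (SD, n = 4 each), giving a log2 fold change of -1.18 ± 0.069 (± SE here and below) and an edgeR adjusted p of 1.51e-07. Wnt2, another canonical ligand, had 0.976, 0.776, 0.760 and 1.22 CPM in null layer 6, against 0.441, 0.390, 0.440 and 0.419 CPM in WT layer 6. It was low throughout, with 31 to 51 counts in a null library and 13 to 23 in a WT library, and the groups did not overlap. Its log2 fold change was 1.13 ± 0.25 (adjusted p 0.00899), and the call was lost without the first or the second WT pair (adjusted p 0.0630 and 0.0576). The other 13 of 15 tested ligand genes were not called: Wnt2b, Wnt3, Wnt3a, Wnt4, Wnt5a, Wnt5b, Wnt6, Wnt7a, Wnt8b, Wnt9a, Wnt11, Wnt16 and Porcn, which encodes the acyltransferase that makes WNT proteins fit for secretion. The median log2 fold change of the 15 was 0.011. Wnt8b, at 0.45 ± 0.23 with an adjusted p of 0.238, was called without the first null pair, at 0.78 (adjusted p 0.0332). Wnt7a, the closest relative of Wnt7b, had 35.2, 36.4, 32.5 and 37.0 CPM in null layer 6, against 34.5, 32.9, 31.7 and 32.8 CPM in WT layer 6, a log2 fold change of 0.10 ± 0.050 with a 95% interval of -0.011 to 0.21 (adjusted p 0.237).

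Some low ligands differed more between library pairs than between genotypes; they and Dkk2 were picked after their values were seen. Wnt5b, a ligand of β-catenin-independent signalling, had 3.39, 3.46, 3.95 and 4.61 CPM in null layer 6, against 4.11, 4.14, 6.83 and 6.999 CPM in WT layer 6. The first WT pair lay within the range of the null libraries and the second above it. The log2 fold change was -0.53 ± 0.19 with an edgeR adjusted p of 0.0846. Wnt5b was called by DESeq2 (adjusted p 0.0386), and by edgeR with all 3 groups in 1 fit (0.0405) or a replicate block (0.0472). Without the first WT pair it was called at -0.84 (adjusted p 0.00266). It was also called without WT replicate 1 (adjusted p 0.0370) or 2 (0.0473), and the other alternatives did not call it. Wnt6 had 1.68, 1.73, 2.26 and 2.651 CPM in null layer 6, against 2.22, 2.46, 3.39 and 2.92 CPM in WT layer 6, and Wnt3a, known as a ligand of the cortical hem, had 0.446, 0.244, 0.883 and 1.003 CPM in null layer 6, against 0.609, 0.630, 0.308 and 0.601 CPM in WT layer 6. In both genes the second null pair exceeded the first. Their log2 fold changes of -0.41 ± 0.19 and 0.25 ± 0.41 had adjusted p of 0.190 and 0.747. Without that second null pair, Wnt6 was called at -0.70 (adjusted p 0.0423), and Wnt3a was at -0.63 (adjusted p 0.376).

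The R-spondin group held 3 of the 8 genes that rose, out of 6 tested, with a median log2 fold change of 0.28. Lgr5, the R-spondin receptor known as a stem cell marker of the intestine, had 5.05, 4.64, 4.12 and 3.30 CPM in null layer 6, against 0.420, 0.570, 0.616 and 0.729 CPM in WT layer 6. These came from 138 to 238 counts in a null library and 19 to 40 in a WT library, and every null library was above every WT library. Its means were 4.28 ± 0.756 CPM in null and 0.584 ± 0.128 CPM in WT (SD, n = 4 each), a log2 fold change of 2.86 ± 0.20 with an adjusted p of 8.99e-07. Rspo3, which encodes a secreted ligand of the LGR receptors, had 26.0, 24.2, 23.1 and 22.4 CPM in null layer 6, against 19.3, 20.6, 17.2 and 18.2 CPM in WT layer 6. The groups did not overlap, and its log2 fold change was 0.35 ± 0.067 (adjusted p 0.00315). Lgr4, the relative of Lgr5 that is broadly expressed in mouse tissues, had 33.3, 30.1, 35.3 and 35.4 CPM in null layer 6, against 29.9, 29.9, 29.2 and 27.4 CPM in WT layer 6. Null libraries began just above the highest WT library, the log2 fold change was 0.20 ± 0.058 and the adjusted p 0.0325. The Lgr4 call was lost on leaving out any 1 library except null replicate 2, with adjusted p of 0.0528 to 0.0957. Rspo2, another R-spondin gene, had 17.8, 19.4, 19.6 and 21.5 CPM in null layer 6, against 21.4, 18.1, 19.0 and 17.3 CPM in WT layer 6, with overlapping groups and a log2 fold change of 0.044 ± 0.076 (95% interval -0.12 to 0.21, adjusted p 0.760). Rspo1 and Lgr6 were not called either.

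Of 12 receptor genes, Fzd1 rose and the other 11 were not called, with a median log2 fold change of -0.027 for the group. Fzd1, a Frizzled receptor gene, had 98.6, 102, 94.98 and 96.7 CPM in null layer 6, against 80.4, 81.6, 79.1 and 73.1 CPM in WT layer 6. The lowest null library was above the highest WT library. Its means were 98.2 ± 3.22 CPM in null and 78.5 ± 3.74 CPM in WT, a log2 fold change of 0.32 ± 0.041 with an adjusted p of 0.000129. Fzd3, a Frizzled known for axon guidance in the mouse forebrain, had 376, 350.4, 343 and 342 CPM in null layer 6, against 339, 357, 344 and 349 CPM in WT layer 6. The groups overlapped, with a log2 fold change of 0.021 ± 0.036 and a 95% interval of -0.056 to 0.10 (adjusted p 0.755). Fzd10 had 1.02, 1.42, 2.55 and 1.77 CPM in null layer 6, against 3.42, 3.15, 1.92 and 1.66 CPM in WT layer 6, also overlapping, with a log2 fold change of -0.58 ± 0.30 (adjusted p 0.229). Without the second WT pair, Fzd10 was called at -0.97 (adjusted p 0.0484). Fzd2, Fzd4, Fzd5, Fzd6, Fzd7, Fzd8, Fzd9 and the co-receptor genes Lrp5 and Lrp6 had log2 fold changes between -0.13 and 0.064.

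Of 9 tested inhibitors that act outside the cell or at its membrane, 2 rose and 0 fell, with a median log2 fold change of 0.14. Sfrp1, a secreted protein that binds WNT ligands and, in the mouse cortex, is known from progenitors, had 192, 191, 185 and 182 CPM in null layer 6, against 140.1, 139, 166 and 164 CPM in WT layer 6. Null libraries were all higher, and the WT pairs stood apart from each other by more than the null libraries did. The log2 fold change was 0.30 ± 0.055 with an adjusted p of 0.00256. Dkk3, a divergent Dickkopf gene whose protein does not act as the classical LRP6 blocker, had 102, 104, 110.3 and 109.8 CPM in null layer 6, against 96.2, 97.5, 96.0 and 97.3 CPM in WT layer 6. Its groups did not overlap and its log2 fold change was 0.14 ± 0.034 (adjusted p 0.0163), with 0.0558 on leaving out null replicate 3 and 0.0501 without null replicate 4. Dkk2, a Dickkopf that binds LRP6, had 1.65, 0.776, 3.11 and 3.32 CPM in null layer 6, against 3.67, 3.60, 2.42 and 3.54 CPM in WT layer 6. Of its null libraries, the first pair was below all WT libraries and the second within their range, and the gene was not called (log2 fold change -0.59 ± 0.33, adjusted p 0.290), although without the second null pair its adjusted p was 0.00607. Kremen1, which encodes a DKK receptor, Sfrp2, Sfrp4, Sfrp5, Rnf43 and Znrf3 were not called.

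Inside the cell, Nkd1 rose and Nkd2 fell among 5 cytoplasmic genes; both encode Naked cuticle proteins, which bind Dishevelled and restrain the pathway. Nkd1 had 22.1, 22.3, 27.02 and 28.5 CPM in null layer 6, against 21.9, 21.2, 17.7 and 19.8 CPM in WT layer 6. The lowest null library was just above the highest WT library (log2 fold change 0.31 ± 0.091, adjusted p 0.0384). Leaving out null replicates 3 or 4 or WT replicates 2, 3 or 4 gave Nkd1 adjusted p of 0.0570 to 0.104. Nkd2 had 26.1, 25.0, 21.997 and 25.6 CPM in null layer 6, against 30.3, 30.0, 27.5 and 26.96 CPM in WT layer 6, with no overlap, a log2 fold change of -0.22 ± 0.063 and an adjusted p of 0.0353. Without null replicates 2 or 3 or WT replicates 1 or 2, its adjusted p was 0.0637 to 0.104. Dvl1, one of the Dishevelled genes that relay the Frizzled signal, had 52.1, 57.0, 66.6 and 63.4 CPM in null layer 6, against 68.0, 67.7, 66.6 and 67.4 CPM in WT layer 6, with 1 null library at the lower edge of the WT range. Its log2 fold change was -0.17 ± 0.063 with an adjusted p of 0.0906, or -0.23 and 0.0204 without null replicate 3, and Dvl2 and Dvl3 were not called.

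The destruction complex had 0 of 4 genes called by edgeR, 0 at an unadjusted p under 0.05 and 0 by DESeq2. Apc, the scaffold that holds β-catenin for degradation, had 858, 854, 784 and 755 CPM in null layer 6, against 806, 828, 786 and 768 CPM in WT layer 6 (log2 fold change 0.028 ± 0.042, adjusted p 0.720). Among the 5 effectors, Ctnnb1, which encodes β-catenin and also links cadherins to the cytoskeleton, fell. It had 1055, 1068, 1103 and 1117 CPM in null layer 6, against 1212, 1193, 1166 and 1148 CPM in WT layer 6. The groups did not overlap, the ratio of null to WT was 0.920 and the log2 fold change was -0.12 ± 0.028 (adjusted p 0.0110). The TCF and LEF factor genes Tcf7, Tcf7l1, Tcf7l2 and Lef1 were not called. Axin2, Lef1, Nkd1, Znrf3 and Rnf43 are known as genes that canonical signalling switches on in many tissues. Axin2 had 37.1, 36.8, 41.2 and 39.3 CPM in null layer 6, against 39.9, 41.8, 35.8 and 35.8 CPM in WT layer 6, a log2 fold change of 0.012 ± 0.060 with a 95% interval of -0.12 to 0.14 (adjusted p 0.926). Lef1 had 9.06, 7.87, 7.80 and 8.96 CPM in null layer 6, against 8.48, 8.10, 7.64 and 7.27 CPM in WT layer 6, a log2 fold change of 0.10 ± 0.087 with an interval of -0.089 to 0.29 (adjusted p 0.511). The intervals were -0.22 to 0.086 for Znrf3 and -0.17 to 0.49 for Rnf43, so of these 5 genes Nkd1 alone was called.

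**Figure D2:**
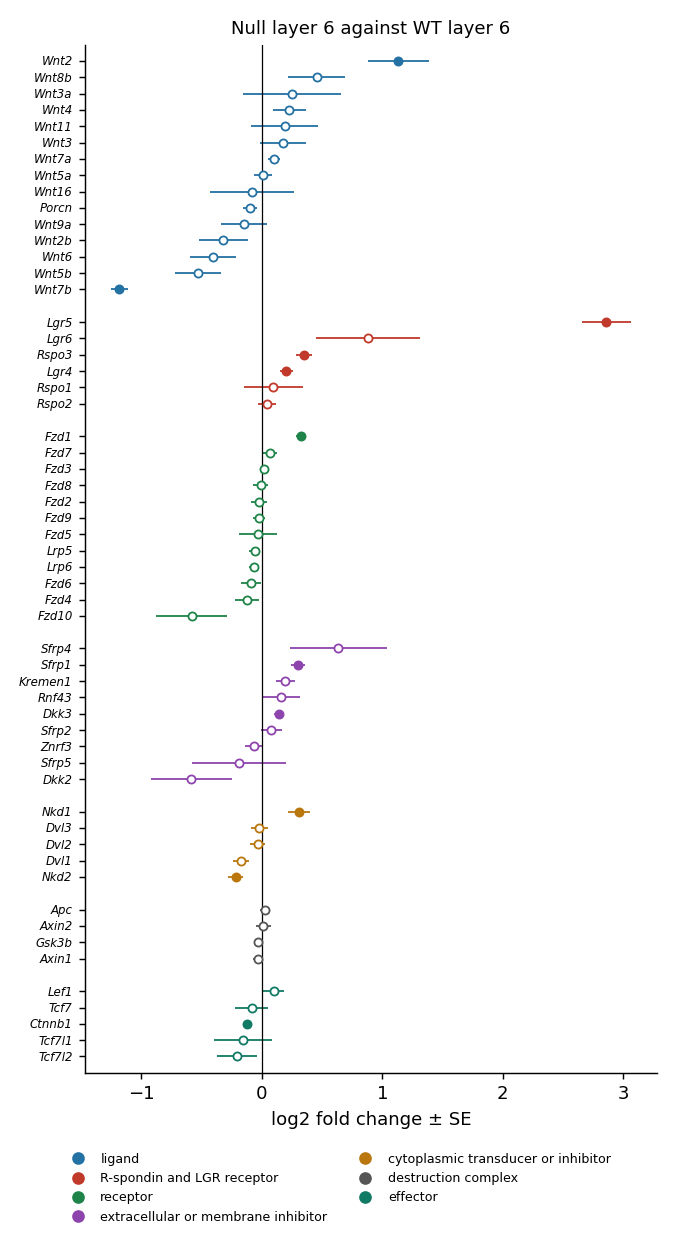
Log2 fold change of null against WT layer 6 for the 56 WNT genes tested, grouped and coloured by role, with bars of ± 1 SE and filled points for genes called at an adjusted p under 0.05. Lgr5 at 2.86 and Wnt7b at -1.18 lie furthest from 0, and the 4 destruction complex genes lie between -0.035 and 0.028.

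Treating the library pairs as units left fewer WNT genes. With the counts of each pair summed, 2 against 2, Wnt7b (adjusted p 0.00260), Lgr5 (0.00348) and Fzd1 (0.0310) were called, and the other 8 had adjusted p from 0.103 for Rspo3 to 0.311 for Nkd1. Over all genes 479 were called that way, against 2068 with 4 libraries a group. With the pair as a random block in limma, whose estimated correlation within pairs was 0.41, Ctnnb1, Rspo3 and Sfrp1 were called as well. Leaving out the first WT layer 6 pair, the one with little Xist, lost the calls of Ctnnb1 (adjusted p 0.134), Dkk3 (0.0693), Lgr4 (0.0646), Nkd2 (0.280) and Wnt2 (0.0630), and Wnt7b, Lgr5, Fzd1, Rspo3, Sfrp1 and Nkd1 were called without it.

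**Figure D3:**
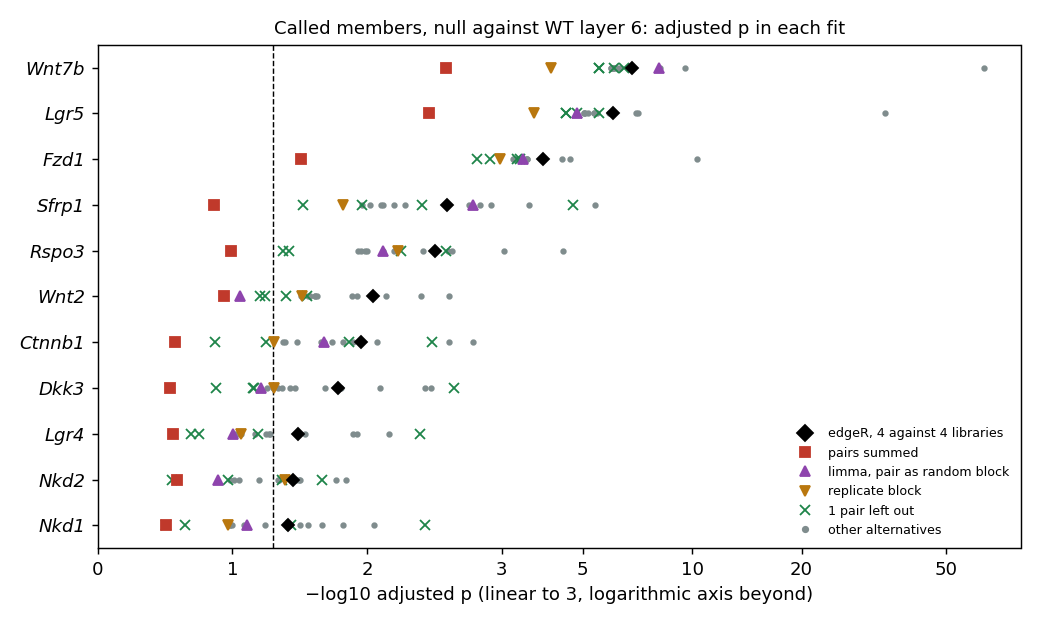
Minus log10 of the adjusted p (horizontal axis, linear to 3 and logarithmic beyond) of the 11 called WNT genes in each fit of null against WT layer 6, with a symbol for each kind of fit and a dashed line at an adjusted p of 0.05. Wnt7b, Lgr5 and Fzd1 stay to the right of the line in all 19 alternatives, and Lgr4 does so in 6.

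Some lists of other cell markers differed between these groups too. Of all genes tested, 14.2% were called. Astrocyte markers summed to 1041 to 1112 CPM in null and 859 to 992 CPM in WT layer 6, with 5 of 10 higher and 1 lower. The 8 markers of dividing progenitors and newborn neurons summed to 493 to 519 CPM in null and 446 to 453 CPM in WT, with 4 higher. The 6 Cajal-Retzius cell markers summed to 68.6 to 78.7 CPM in null and 138 to 158 CPM in WT, with 5 lower. Of the neuronal lists, 6 of 7 layer 6 markers were lower and 4 of 6 layer 5 markers higher, 2 of 4 glutamatergic markers were lower (790.0 to 842 CPM in null and 955 to 1007 CPM in WT), and of 9 interneuron markers 1 was higher and 3 lower (364 to 374 CPM in null and 386 to 408 CPM in WT). Of 8 tested oligodendrocyte lineage markers, 2 were higher and 4 lower. Of 8 microglia markers, 0 were called, and their sums overlapped (75.8 to 81.7 CPM in null and 77.9 to 89.7 CPM in WT). None of these markers was at 0 in either group. Their part in the WNT differences was not tested.

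A further 58 WNT-related genes outside the family names were counted in the same fit. Of 57 tested, 2 rose and 7 fell, or 15.8%, near the 14.2% of all genes. Myc, a proliferation gene, and Tspan12, a tetraspanin of the Norrin and Frizzled4 receptor complex, rose, and Tspan12 had 29.1, 27.5, 29.1 and 26.99 CPM in null layer 6, against 22.7, 23.9, 23.2 and 24.5 CPM in WT layer 6 (log2 fold change 0.26 ± 0.049, adjusted p 0.00295). Celsr2, an atypical cadherin, fell, with 126, 132, 131 and 133 CPM in null layer 6, against 155, 164, 149 and 148 CPM in WT layer 6 (log2 fold change -0.23 ± 0.038, adjusted p 0.000977), and Vangl1 fell with a log2 fold change of -0.44 ± 0.094 (adjusted p 0.00654). Their relatives Celsr1, Celsr3 and Vangl2 were not called, at log2 fold changes of 0.10, -0.085 and -0.13, nor were Prickle1, Prickle2, Prickle3 and Ptk7. Gpr124, the co-receptor through which Wnt7a and Wnt7b signal in brain endothelium, had 15.2, 15.0, 16.5 and 16.7 CPM in null layer 6, against 22.7, 19.8, 18.3 and 18.6 CPM in WT layer 6, with no overlap (log2 fold change -0.32 ± 0.075, adjusted p 0.0108). The vascular markers beside it summed to 338 to 358 CPM in null and 371 to 381 CPM in WT, with 2 of 10 lower, and their part was not tested. Tle3, a corepressor of TCF factors, fell by 0.22 ± 0.033 on the log2 scale (adjusted p 0.000429). The WNT inhibitor gene Apcdd1, the Dishevelled-binding gene Invs and the receptor gene Tnfrsf19 fell by 0.25, 0.45 and 0.11 (adjusted p 0.0338, 0.0487 and 0.0310). Invs was split by pair, with 15.1, 14.9, 9.78 and 9.29 CPM in null libraries against 16.3, 17.6, 17.0 and 16.1 CPM in WT libraries.

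WT layer 5 was then compared with WT layer 6. The Frizzled and R-spondin genes differed in opposite directions within each family, whereas all 5 effector genes were higher in layer 5. Of these 5, the Tcf7l1 call was lost with either layer 5 batch alone. Of 56 members tested, 27 were higher and 24 lower in WT layer 5 (91.1%), against 85.5% of all 14927 genes, of which 42.2% were higher and 43.4% lower. The groups did not overlap for 47 members, and for 81.1% of all genes. A change of at least 2 on the log2 scale was called for 7 members, against 7.67% of all genes, and one of at least 1 for 18, against 27.6%. All 51 called members had the same sign with the batch B or the batch C libraries of layer 5 alone. With batch B 49 of them were called, and with batch C 46. Over all genes, 12223 of 15225 were called with batch B and 12073 of 15163 with batch C. The 51 were called from these same libraries, and layer 6 was in batch A throughout, so these fits cannot separate layer from batch. These libraries differed widely in other cell types as well: astrocyte markers summed to 5181 to 5211 CPM in WT layer 5 and 859 to 992 CPM in WT layer 6, with 10 of 10 higher. Oligodendrocyte lineage markers summed to 1102 to 1109.6 CPM in WT layer 5 and 262 to 274 CPM in WT layer 6, with 10 of 10 higher. Microglia markers summed to 254 to 262 CPM in WT layer 5 and 77.9 to 89.7 CPM in WT layer 6, with 8 of 8 higher, and vascular markers to 795 to 816 CPM in WT layer 5 and 371 to 381 CPM in WT layer 6, with 10 of 10 higher. Neuronal sums ran the other way. Glutamatergic neuron markers summed to 511 to 533 CPM in WT layer 5 and 955 to 1007 CPM in WT layer 6, although 2 of the 4 were higher and 1 lower, and interneuron markers to 238 to 246 CPM in WT layer 5 and 386 to 408 CPM in WT layer 6, with 1 of 9 higher and 7 lower. Progenitor and newborn neuron markers had 2 of 8 higher and 5 lower, and all 6 Cajal-Retzius markers were lower. No marker of these lists was at 0, and their part in the differences below was not tested.

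Ligand genes, Porcn among them, were mostly lower in WT layer 5, with 9 lower and 4 higher of 15 and a median log2 fold change of -0.66. The Wnt genes alone had 8 lower and 4 higher of 14, with a median of -0.64. Wnt7b had 74.0, 74.0, 77.2 and 75.3 CPM in WT layer 5, below all WT layer 6 libraries, with a log2 fold change of -1.23 ± 0.039 (edgeR adjusted p 5.20e-13). Wnt3a had 0 counts in all 4 WT layer 5 libraries and 0.609, 0.630, 0.308 and 0.601 CPM in WT layer 6. Against a floor of 3 counts over the 4 layer 5 libraries, 0.0226 CPM, it was at least 23.8-fold lower in layer 5. Wnt8b, known from the hem and hippocampal field of the mouse brain, had 0.0251, 0.0578, 0.288 and 0.0723 CPM in WT layer 5, against 1.30, 1.65, 1.08 and 1.20 CPM in WT layer 6, with no overlap (log2 fold change -3.55 ± 0.43, adjusted p 1.90e-06). Wnt2b, Wnt5b, Wnt6, Wnt7a, Wnt11 and Porcn were lower too, Porcn at 11.1 ± 0.433 CPM in WT layer 5 and 22.03 ± 1.05 CPM in WT layer 6 (SD, n = 4 each). Wnt9a was 2.86-fold higher in layer 5, with 5.84, 6.87, 5.38 and 6.32 CPM in WT layer 5, against 2.92, 2.37, 1.76 and 1.70 CPM in WT layer 6, and Wnt3, Wnt4 and Wnt5a were higher with log2 fold changes of 0.50, 0.77 and 0.29. Wnt2 and Wnt16 were not called.

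**Figure D4:**
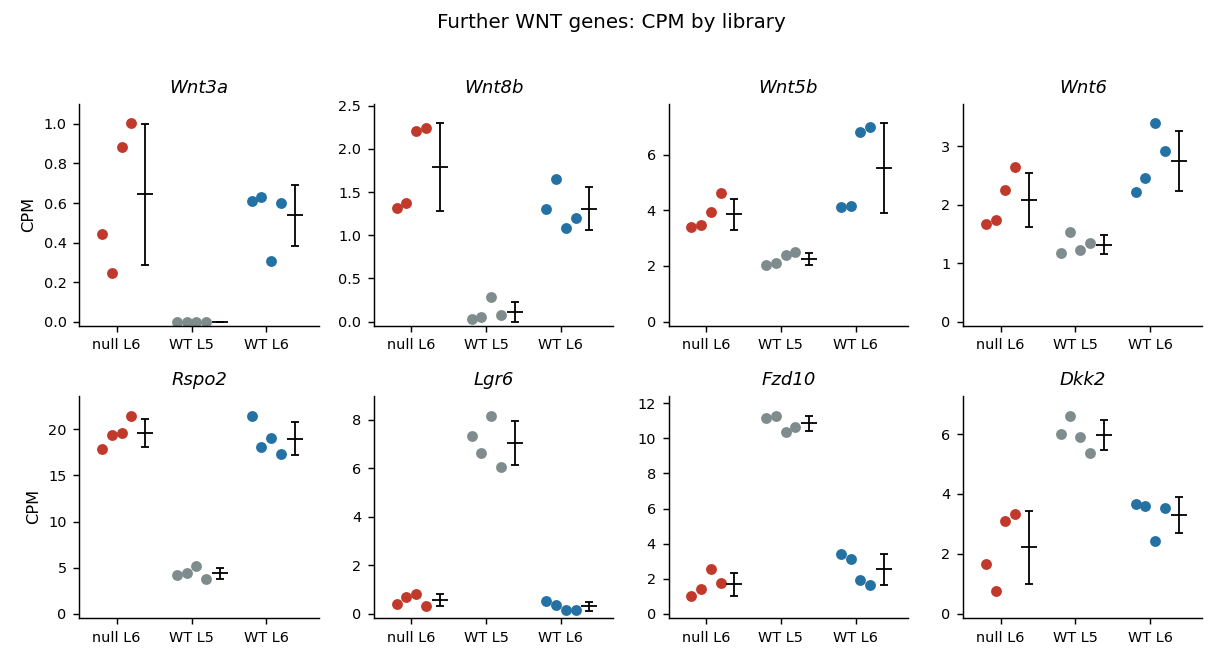
Level in CPM (linear axes starting near 0) of 8 further WNT genes in each library of null layer 6 (red), WT layer 5 (grey) and WT layer 6 (blue), with the mean ± SD (n = 4) as a bar. Wnt3a is at 0 in WT layer 5, Lgr6 at 6.03 to 8.16 CPM there against 0.164 to 0.546 CPM in WT layer 6, and Wnt5b in WT layer 6 splits into a pair near 4 CPM and a pair near 7 CPM.

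In the R-spondin group the LGR receptor genes moved apart. Lgr6, which marks stem cells of the skin, had 7.32, 6.61, 8.16 and 6.03 CPM in WT layer 5, against 0.546, 0.360, 0.176 and 0.164 CPM in WT layer 6. Every layer 5 library was far above every layer 6 library, a log2 fold change of 4.55 ± 0.25 (adjusted p 2.03e-10). Lgr4 had 18.5, 18.5, 18.6 and 19.9 CPM in WT layer 5, below all WT layer 6 libraries (log2 fold change -0.60 ± 0.050, adjusted p 3.08e-08). Lgr5 had 0.226, 0.635, 0.288 and 0.397 CPM in WT layer 5, overlapping WT layer 6, and was not called (adjusted p 0.119), although without layer 5 replicate 2 its log2 fold change was -0.95 with an adjusted p of 0.0221. Rspo3 had 2.13, 2.25, 2.11 and 2.06 CPM in WT layer 5, against 19.3, 20.6, 17.2 and 18.2 CPM in WT layer 6, and Rspo2 had 4.24, 4.45, 5.22 and 3.76 CPM in WT layer 5. Both were lower in every layer 5 library, by 8.58-fold and 4.20-fold (adjusted p 1.13e-13 and 3.43e-11), while Rspo1 was 2.40-fold higher.

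Frizzled genes split between the layers. Fzd1 had 16.3, 18.5, 17.3 and 16.2 CPM in WT layer 5, against 80.4, 81.6, 79.1 and 73.1 CPM in WT layer 6, a log2 fold change of -2.17 ± 0.048 (adjusted p 9.79e-15), and Fzd2, Fzd3, Fzd7, Fzd8 and Fzd9 were lower in layer 5 as well, by 0.17 to 1.48 on the log2 scale. Fzd3 had 292, 309, 299.6 and 309.7 CPM in WT layer 5, just under its WT layer 6 range. Fzd10 had 11.1, 11.3, 10.4 and 10.6 CPM in WT layer 5, against 3.42, 3.15, 1.92 and 1.66 CPM in WT layer 6, with every layer 5 library higher (log2 fold change 2.15 ± 0.17, adjusted p 2.43e-08). Fzd4, known as the Frizzled of retinal and brain vessels, and Fzd6 were higher in layer 5 at 0.57 and 1.04, and Fzd5 was not called. The co-receptor genes Lrp5 and Lrp6 moved little, at 0.17 ± 0.039 and -0.069 ± 0.030. The Lrp6 call, at an adjusted p of 0.0443, was lost without WT layer 6 replicates 2 or 3 or layer 5 replicates 2, 3 or 4, with an adjusted p of up to 0.146 over all alternatives.

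Of 9 tested inhibitors, 6 were higher and 2 lower in layer 5. Sfrp1 had 57.0, 57.8, 58.2 and 55.2 CPM in WT layer 5, under all WT layer 6 libraries, a log2 fold change of -1.39 ± 0.056 (adjusted p 6.97e-12), and Sfrp2 followed at -0.82. The membrane ubiquitin ligase genes Znrf3 and Rnf43, Kremen1, Dkk2, Dkk3 and Sfrp5 were higher by 0.35 to 0.89 on the log2 scale, and Sfrp4 was not called. Sfrp5 was low, at 0.926 ± 0.192 CPM in WT layer 5 and 0.564 ± 0.0728 CPM in WT layer 6, with overlapping groups. Its call was lost with pairs summed and with batch C alone (adjusted p of up to 0.0894). Among cytoplasmic genes Dvl1, Dvl3 and Nkd1 were higher and Dvl2 and Nkd2 lower. Dvl1 had 87.8, 90.9, 91.0 and 88.8 CPM in WT layer 5, above all WT layer 6 libraries (log2 fold change 0.44 ± 0.029, adjusted p 1.78e-09).

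Apc had the largest fold of the destruction complex genes, with 2969, 3005, 2999.6 and 2985 CPM in WT layer 5, against 806, 828, 786 and 768 CPM in WT layer 6. All layer 5 libraries lay within 2969 to 3005 CPM, 3.83-fold above layer 6 (log2 fold change 1.94 ± 0.024, adjusted p 3.00e-17). Axin2 was higher in layer 5 at 0.48, Gsk3b at 0.13 and Axin1 was lower at -0.45. Ctnnb1 had 1804, 1879, 1798 and 1865 CPM in WT layer 5, above every WT layer 6 library, with a log2 fold change of 0.67 ± 0.023 (adjusted p 1.50e-12). The factor genes Tcf7l2, Tcf7, Tcf7l1 and Lef1 were higher too, at 1.04, 0.86, 0.53 and 0.40. The Tcf7l1 call was lost with layer 5 batch B or batch C alone, with pairs as a random block and with pairs summed. It was also lost in 4 of the 8 fits that left out 1 library. Those were without WT layer 6 replicates 2 or 4 or layer 5 replicates 2 or 4. Over the alternatives its adjusted p reached 0.115. Among the fits that left out 1 library, Wnt11 lost its call without WT layer 6 replicate 3 or layer 5 replicates 1 or 3. Its adjusted p was up to 0.174 over the alternatives.

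**Figure D5:**
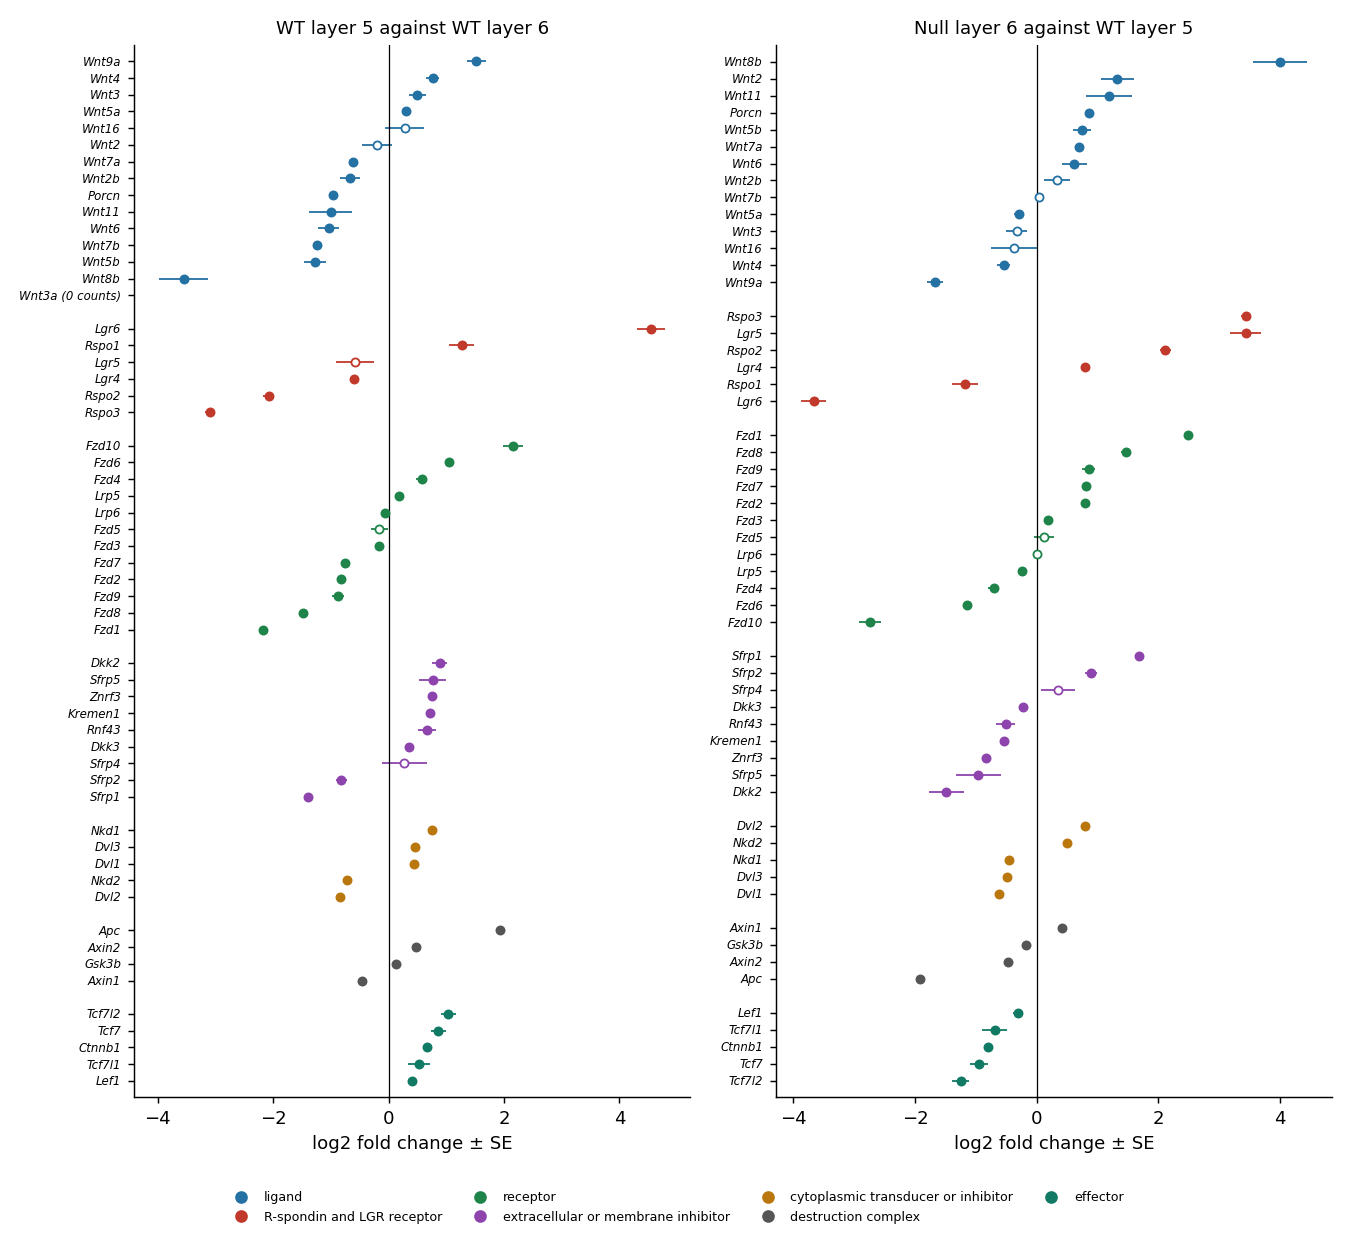
Log2 fold changes of WT layer 5 against WT layer 6 (left) and of null layer 6 against WT layer 5 (right) for the tested WNT genes, grouped and coloured by role, with bars of ± 1 SE and filled points for called genes. The 5 effectors are right of 0 on the left side and left of 0 on the right side, and the 2 sides share the layer 5 libraries. Wnt3a, with 0 counts in layer 5, has no point.

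Null layer 6 was last set against WT layer 5, which shares its libraries with the comparisons above. Wnt7b, Lrp6, Fzd5, Wnt2b, Wnt3, Wnt16 and Sfrp4 were the 7 of 55 tested members that were not called. Of the others, 22 were higher and 26 lower in null layer 6 (87.3%), against 84.3% of all 15013 genes, 42.4% higher and 41.8% lower. Groups did not overlap for 46 members and for 80.2% of all genes, and 7 members were called at 2 or more on the log2 scale, against 8.06%, and 17 at 1 or more, against 28.2%. All 48 called members had the same sign with batch B or batch C alone, and 45 were called with each. Over all genes, 11951 of 15235 were called with batch B and 11847 of 15242 with batch C. The 48 were called from these same libraries, and null layer 6 was in batch A throughout, so batch and group cannot be told apart here either. Wnt7b stood at 79.4 ± 8.99 CPM in null layer 6, at 75.1 ± 1.54 CPM in WT layer 5 and at 180.2 ± 10.7 CPM in WT layer 6 (SD, n = 4 each). Between null layer 6 and WT layer 5 its log2 fold change was 0.045 ± 0.061, with a 95% interval of -0.085 to 0.18 (adjusted p 0.494), and the second null pair lay below the layer 5 libraries and the first above them. Lgr5 was 10.8-fold higher in null layer 6 (log2 fold change 3.44 ± 0.25, adjusted p 5.06e-09), and Wnt2 2.51-fold higher (adjusted p 0.000349), so both were above the other 2 groups in every null library.

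By role, null layer 6 had 7 ligand genes higher and 3 lower of 14 tested against WT layer 5, and 4 higher and 2 lower of 6 in the R-spondin group. Wnt3a was not tested there and, with 0 counts in layer 5, was at least 27.6-fold higher in null layer 6. Fzd1 was 5.61-fold, Rspo3 10.9-fold and Sfrp1 3.21-fold higher in null layer 6 than in WT layer 5 (adjusted p 6.85e-16, 6.46e-15 and 4.92e-16). Receptors had 6 higher and 4 lower of 12, and inhibitors 2 higher and 6 lower of 9. All 5 effectors and 3 of 4 destruction complex genes were lower in null layer 6, Ctnnb1 at -0.79 ± 0.025 and Apc at -1.91 ± 0.035 (adjusted p 1.91e-13 and 5.26e-16). Lgr6 had 0.424, 0.688, 0.834 and 0.334 CPM in null layer 6, under all layer 5 libraries, and Wnt8b had 1.32, 1.38, 2.21 and 2.24 CPM, above all of them (adjusted p 6.80e-07). Lgr6 and Fzd10 were 12.7-fold and 6.65-fold lower. Astrocyte markers differed beside these genes, at 1041 to 1112 CPM in null layer 6 and 5181 to 5211 CPM in WT layer 5. Glutamatergic neuron markers summed to 790.0 to 842 CPM in null layer 6 and 511 to 533 CPM in WT layer 5. Of these 4 markers, though, 1 was higher and 2 were lower in null layer 6. The part of both lists was not tested.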

How the data were processed

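RNA-seq libraries of sorted mouse cortical neurons were used, 4 per group, from stranded, ribosome-depleted total RNA per the labels' protocols. The authors deposited a table of raw counts, whole reads for each gene. Per the submitters' processing notes STAR 2.5.2b, HTSeq and bedtools were used with the build mm9, while the annotation and strand setting of the counting are not stated there. Without them, reads of overlapping or antisense genes may be shared. Library totals cover all 24015 genes, and every sample column was matched (0 unmatched). A rescaled copy of the gene table and the ChIP-seq peak lists were not used here: peak coordinates are mm9 and the available promoter windows GRCm38.

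The test was the quasi-likelihood F-test of edgeR 4.0.16 (R 4.3.3), fitted to the 2 groups of each comparison after TMM normalization and filterByExpr by group with its minimum count of 10. A gene was called when its p, adjusted by Benjamini-Hochberg over all genes tested, was under 0.05. The test was tried on simulated data with known changes, drawn independently for each library. That trial cannot speak to calls that depend on the library pairs. Fold changes are on the log2 scale, first-named group over second, with SE from the F statistic. CPM are on TMM-scaled totals over all 12 libraries. Depth limits precision for genes under about 10 counts, and the floor of 3 counts covers counting error only. Alternatives were DESeq2 1.42.0, RLE size factors, no filter, a replicate block, all 3 groups in 1 fit, limma 3.58.1 voom with pairs as a random block, pairs summed, and fits without single libraries, pairs or batches. Layer 5 libraries were paired 1 with 3 and 2 with 4, each pair spanning batches B and C, from an earlier comparison of their counts.

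Members, roles and marker lists were chosen with earlier results of these data known. Per-library values are given for members called between null and WT layer 6, members called between layers with an absolute log2 fold change of at least 2 and a mean of at least 1 CPM in a group, and the member of highest mean CPM in each role. Wnt3a, Wnt5b, Wnt6, Wnt7a, Wnt9a, Dkk2, Axin2 and Lef1 were added after their values were seen. Of the related genes, those called with a mean of at least 5 CPM and groups that do not overlap are named. Myc and the uncalled Celsr1, Celsr3, Vangl2, Prickle1, Prickle2, Prickle3 and Ptk7 are named outside that rule.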

Additional observations from a re-analysis of the deposited data

Results flagged for a closer look

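In a group of 4 libraries, a gene was marked where the gap between 1 library and the nearest other, as a share of the whole range, exceeded Dixon's 95% critical value. Chance marks about 1 group in 20, and 3 of 71 groups tested were marked. Lgr4 was at 19.9 CPM in WT layer 5 replicate 4, above the 18.5 to 18.6 CPM of the other libraries. Wnt3a was at 0.308 CPM in WT layer 6 replicate 3, below 0.601 to 0.630 CPM in the others. Dkk2 was at 2.42 CPM in WT layer 6 replicate 3, below 3.54 to 3.67 CPM in the others.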

How the results depend on the processing

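Between null and WT layer 6, Wnt7b, Lgr5 and Fzd1 were called in all 19 alternatives. The count of WNT genes higher in null, 8, was 4 with limma and pairs as a random block, 2 with pairs summed, 5 without the second null pair and 4 without the second WT pair, and 5 to 8 without 1 library; it was 5 without null replicate 3 or 4. The count lower, 3, was 5 with all 3 groups in 1 fit, 1 with pairs summed and 5 without the second null pair, and 2 to 3 without 1 library. Over all genes, 2068 calls became 1277 with the random block and 479 with pairs summed. Fewer units enter the fits with pairs summed; the cause of the other shifts was not tested.

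Some uncalled members changed sign. Without the second null pair, Wnt3a was at -0.63, against 0.25 with all libraries, Rspo2 at -0.031 and Axin2 at -0.053. Without the second WT pair, Rspo2 was at -0.021, Apc at -0.0093 and Axin2 at -0.083, and without the first null pair Apc was at -0.049 and Fzd3 at -0.019. Without single libraries, Rspo2 ranged over -0.0028 to 0.11, Wnt3a over -0.048 to 0.53, Fzd3 over -0.0094 to 0.036 and Axin2 over -0.022 to 0.055. Their cause was not tested.

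The labels do not say that replicate numbers pair null and WT libraries. Correlations of same-numbered deviations from group means were -0.13 to -0.065, and -0.028 to 0.023 in the comparisons with layer 5. These deviations also carry the library pairs, so the correlations cannot exclude pairing by number. With the replicate block, 1526 of 14588 genes were called between null and WT layer 6, Lgr4 (0.0871) and Nkd1 (0.109) were not, and Wnt5b was (0.0472). In both layer 5 comparisons the counts of members stayed within 1.5 times, at 26 to 27 higher and 22 to 24 lower for WT layer 5, and 22 to 23 higher and 25 to 26 lower for null layer 6, without 1 library.

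Single calls lost elsewhere in WT layer 5 against WT layer 6 were Gsk3b, Lrp5 and Sfrp5 with pairs summed, and Wnt3 and Sfrp5 with batch C alone. Against layer 5, the Sfrp5 call of null layer 6 was lost without null replicates 1 or 2 or layer 5 replicates 1, 2 or 3 (adjusted p of up to 0.151 over the alternatives). Depth limits the low ligands: Wnt2 rests on under 60 counts a library.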
